A study of Mus musculus with 5 samples.

Results

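Granzymes A, K and M are encoded by Gzma, Gzmk and Gzmm, the granzyme genes that lie outside the chromosome 14 cluster of Gzmb and its close relatives. They were taken by symbol, and all 3 were found among the 23337 genes listed in each library. RNA sequencing had been run on OT-I CD8+ T cells, which carry a transgenic receptor for an ovalbumin peptide, recovered from tumors of B16-OVA, a mouse melanoma line made to express ovalbumin. One group of mice had been given anti-PD-L1 (2 libraries), an antibody that blocks a ligand of PD-1, and the other Control IgG, an anti-KLH rat IgG2b (3 libraries). The cells of both groups were of the strain C57BL/6J CD45.1 OT-I, came from donors 6 to 12 weeks old, and had been activated in culture with anti-CD3 and anti-CD28 and grown in IL-2 until day 5 or 6. They were then injected into mice with tumors 0.25 to 0.4 cm across. Each mouse received 200 µg of antibody on day 3 and again on day 6 after the transfer, and tumors were taken on day 8 or at a diameter of 1.2 cm. Each library pooled cells of several mice of a group, sorted as live CD8+ CD45.1+ cells, CD45.1 being the marker in the strain name of the transferred cells. The host strain is not given in the sources used here, so whether the sort left out all of the tumor's own T cells cannot be told.

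Granzymes are serine proteases that cytotoxic lymphocytes store in granules and release, with perforin, into a target cell. Granzymes A and K are tryptases, which cut after arginine or lysine, and granzyme M prefers methionine or leucine at the cut. In mice Gzma is made by effector CD8+ T cells and natural killer (NK) cells, Gzmk is a frequent transcript of memory-like and tumor-infiltrating CD8+ T cells, and Gzmm is known mainly from NK cells and other innate-like lymphocytes.

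Gzma spans chromosome 13 from 113093825 to 113100981 and Gzmk from 113171608 to 113225908 on GRCm38, both on the minus strand. They are neighbours, 70626 bases apart, with no protein-coding gene annotated between them. Gzmm lies on the plus strand of chromosome 10 from 79689020 to 79695261. The principal transcript of each of the 3 genes has 5 exons, and its length is 878 bases for Gzma, 1028 for Gzmk and 1287 for Gzmm. Gzmk overlaps Esm1, a gene of the opposite strand, only through the intron of a long alternative transcript, and the annotated exons of Gzmk and Esm1 share 0 bases. The windows from 250 bases before to 50 bases after the RefSeq start sites (build GRCm38.p6) are shown for each gene. A link between the letters of these windows, or the place of the genes in the genome, and their levels was not tested. Capitals mark the letters TGTGGT, the core recognised by RUNX factors, and TCACAC, the core recognised by T-box factors such as T-bet and Eomes, read on either strand. The windows are chr13:113100932-113101231 on the minus strand, chr13:113180916-113181215 on the minus strand and chr10:79688770-79689069 on the plus strand.
Gzma: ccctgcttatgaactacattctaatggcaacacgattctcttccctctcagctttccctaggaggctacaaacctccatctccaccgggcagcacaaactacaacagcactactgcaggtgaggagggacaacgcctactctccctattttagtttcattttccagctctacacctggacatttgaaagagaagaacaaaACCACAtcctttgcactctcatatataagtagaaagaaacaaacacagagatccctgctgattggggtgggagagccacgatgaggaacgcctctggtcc
Gzmk: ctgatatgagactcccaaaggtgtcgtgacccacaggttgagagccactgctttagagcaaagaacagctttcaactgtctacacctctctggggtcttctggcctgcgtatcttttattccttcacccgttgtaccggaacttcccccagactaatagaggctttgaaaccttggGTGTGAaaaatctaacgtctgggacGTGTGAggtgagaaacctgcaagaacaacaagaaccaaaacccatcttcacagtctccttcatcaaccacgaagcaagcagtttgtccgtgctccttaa
Gzmm: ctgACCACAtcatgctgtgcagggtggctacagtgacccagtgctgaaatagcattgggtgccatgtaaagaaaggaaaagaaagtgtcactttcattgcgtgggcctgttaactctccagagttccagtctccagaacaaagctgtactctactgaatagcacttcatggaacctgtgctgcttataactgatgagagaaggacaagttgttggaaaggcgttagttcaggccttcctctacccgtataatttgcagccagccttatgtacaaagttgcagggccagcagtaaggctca

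The Gzma window held a single RUNX core, with its first printed letter at position -50 from the start site, and no T-box core. The Gzmk window held a pair of T-box cores, at -74 and -49, and no RUNX core. The Gzmm window held a RUNX core at -247, and the window of its other RefSeq start site, which is not shown, held T-box cores at -188 and 5. Of 32851 mouse promoter windows of the same length, 16.8% held the RUNX core and 14.5% the T-box core. The letters GGAAAA, found in sites of NFAT factors, were present in the Gzma and the shown Gzmm window and in 23.4% of all windows. The AP-1 letters TGANTCA were in none of the windows of the 3 genes and in 7.81% of all. No 2 of these matches overlapped. A match of this kind describes letters and does not show that a factor binds.

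Counts assigned to genes ran from 9985943 to 12830485 per library, so that a floor of 3 counts lay between 0.234 and 0.300 CPM, the count of a gene scaled to a common library total. The libraries numbered 1 in both groups stood apart, with 11696 and 11977 genes detected against 13564 to 13801 in the other 3. The sort was matched by summed levels of 8 CD8+ T cell genes of 7841 to 9385 CPM after anti-PD-L1 and 7310 to 8205 CPM in Control IgG libraries. Markers of other cells were lower. Sums over 8 myeloid genes were 73.1 to 105 CPM after anti-PD-L1 and 70.5 to 162 CPM with Control IgG, and over 5 melanoma genes 39.5 to 102 CPM after anti-PD-L1 and 3.95 to 293 CPM with Control IgG. Sums over 3 CD4+ T cell genes were 11.5 to 20.0 CPM after anti-PD-L1 and 12.9 to 24.7 CPM with Control IgG. The leading markers were Lyz2 and C1qb for myeloid cells, Pmel and Dct for melanoma, and Cd40lg and Foxp3 for CD4+ T cells. Cd4 reached at most 1.30 CPM in any library. The anti-PD-L1 values lay above all control values for 2 of the 8 CD8+ T cell genes and 1 of 10 NK genes in CPM of the library total, where 7.74% of all tested genes did in CPM scaled by edgeR's TMM normalization factors. In pooled bulk RNA, a change in the number of cells that make a transcript cannot be told apart from a change in its amount per cell.

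Gzma was by far the most abundant of the 3 transcripts. It stood at 1045 and 655 CPM in anti-PD-L1 replicates 1 and 2, against 609.7, 206 and 112 CPM in Control IgG replicates 1, 2 and 3. These values rest on 11272 and 8792 counts after anti-PD-L1 and on 6817, 2209 and 1457 counts in the controls. The groups did not overlap, but the lower anti-PD-L1 library was only 1.07 times the highest control, and the 3 controls themselves spread over a 5.46-fold range. The means were 850.3 ± 276 CPM after anti-PD-L1 (SD, n = 2) and 309 ± 264 CPM with Control IgG (SD, n = 3), and the fitted log2 fold change was 1.46 ± 0.61 (SE). Among all detected genes ordered by count, Gzma ranked 148 and 207 after anti-PD-L1, and 293, 789 and 1626 in Control IgG replicates 1, 2 and 3. Of the 11299 genes tested, 7.74% likewise had all anti-PD-L1 values above all control values.

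Gzmk was present at moderate levels and the groups overlapped. It stood at 98.0 and 44.2 CPM in anti-PD-L1 replicates 1 and 2, against 69.2, 24.5 and 35.3 CPM in Control IgG replicates 1, 2 and 3. Control IgG replicate 1 thus exceeded anti-PD-L1 replicate 2. The means were 71.1 ± 38.1 CPM after anti-PD-L1 (SD, n = 2) and 43.0 ± 23.3 CPM with Control IgG (SD, n = 3), with a log2 fold change of 0.73 ± 0.49 (SE).

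Gzmm was a low transcript whose anti-PD-L1 libraries lay on opposite sides of most controls. It stood at 1.30 and 9.84 CPM in anti-PD-L1 replicates 1 and 2, against 11.4, 6.07 and 8.90 CPM in Control IgG replicates 1, 2 and 3. The value of anti-PD-L1 replicate 1 came from 14 counts, with an exact 95% Poisson interval of 0.710 to 2.18 CPM, and the lowest lower bound among the other 4 libraries was 4.69 CPM, in Control IgG replicate 2. Such intervals cover the counting error of reads only. The protocol does not mark molecules, and PCR copies among the reads would make the intervals too narrow. Anti-PD-L1 replicate 2 lay within the range of the controls. The means were 5.57 ± 6.04 CPM after anti-PD-L1 (SD, n = 2) and 8.78 ± 2.64 CPM with Control IgG (SD, n = 3), and the log2 fold change was -0.65 ± 0.78 (SE).

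**Figure D1:**
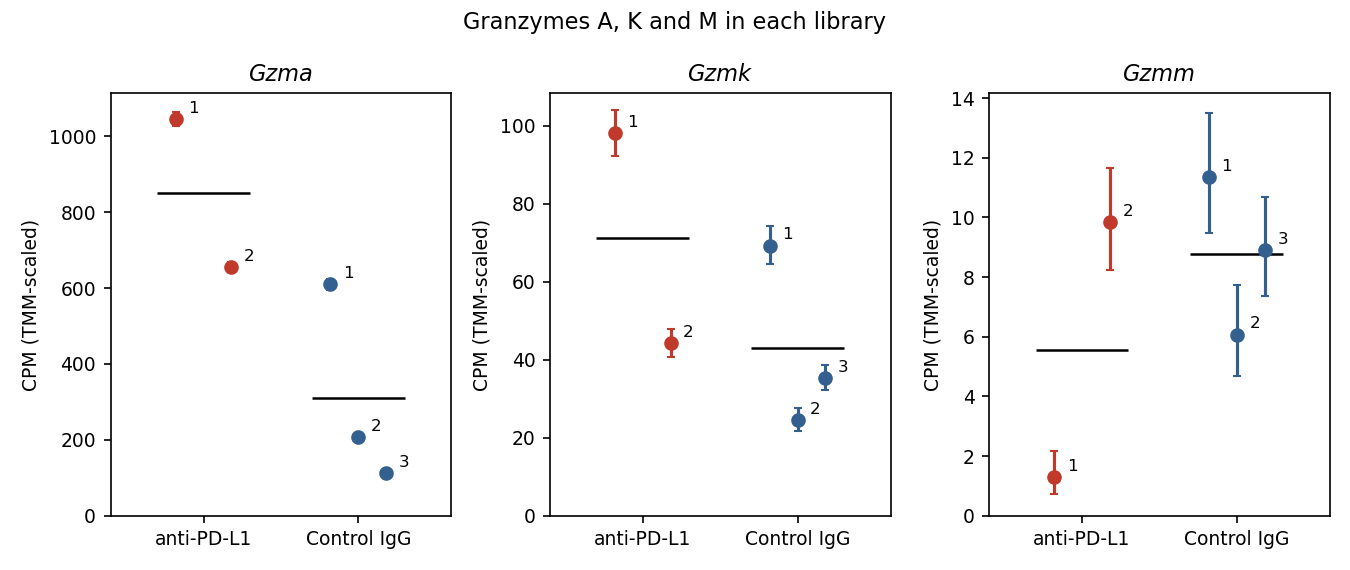
TMM-scaled CPM of Gzma, Gzmk and Gzmm in the 2 anti-PD-L1 and the 3 Control IgG libraries, with replicate numbers beside the points, exact 95% Poisson intervals as error bars and horizontal lines at the group means. The groups separate narrowly for Gzma and overlap for Gzmk. For Gzmm, anti-PD-L1 replicate 1 is lowest, at 1.30 CPM, with its interval below those of all other libraries.

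None of the 3 genes passed an adjusted p of 0.05 in edgeR's quasi-likelihood test, and neither did any other gene (0% of 11299), the smallest adjusted p being 0.9999. Without adjustment, edgeR gave 241 genes a p under 0.05, which is 2.13% of those tested (134 higher, 1.19%, and 107 lower, 0.947%), and Gzma was among them at 0.0443, in position 203 of all genes ordered by p. The unadjusted edgeR p was 0.174 for Gzmk and 0.428 for Gzmm. DESeq2 called 4 other genes (0.0265%) and limma-voom called 0, with 395 (2.62%) and 257 (2.27%) genes whose unadjusted p was under 0.05, and the unadjusted p of Gzma was 0.124 in DESeq2 and 0.0151 in limma-voom. An exact permutation test over the libraries, 2 against 3, cannot give a two-sided p below 0.2, and gave 0.2 for Gzma, 0.4 for Gzmk and 0.6 for Gzmm. The pooled mice behind a library are not named in the labels, so every p measures the spread between pools.

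The size of each difference depended on single libraries. Without Control IgG replicate 1, the control in which Gzma was highest, the log2 fold change of Gzma was 2.42 ± 0.39 (SE), and that of Gzmk was 1.25 ± 0.43 (SE). Without anti-PD-L1 replicate 1 that of Gzma was 1.08 ± 0.77 (SE), while Gzmk came to 0.04 ± 0.57 (SE). With both libraries numbered 1 left out, that of Gzmk was 0.55 ± 0.31 (SE). Gzmm turned to 0.16 ± 0.56 (SE) without anti-PD-L1 replicate 1 and to -2.71 ± 0.76 (SE) without anti-PD-L1 replicate 2. No gene passed without Control IgG replicate 1. Fits without an anti-PD-L1 replicate hold a single anti-PD-L1 library, so their spread comes from the controls alone. With both libraries numbered 1 left out, Gzma was the 1 gene of 11687 tested (0.00856%) that passed, at 2.03 ± 0.27 (SE), in a fit that holds a single anti-PD-L1 library and takes its spread from 2 controls.

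**Figure D2:**
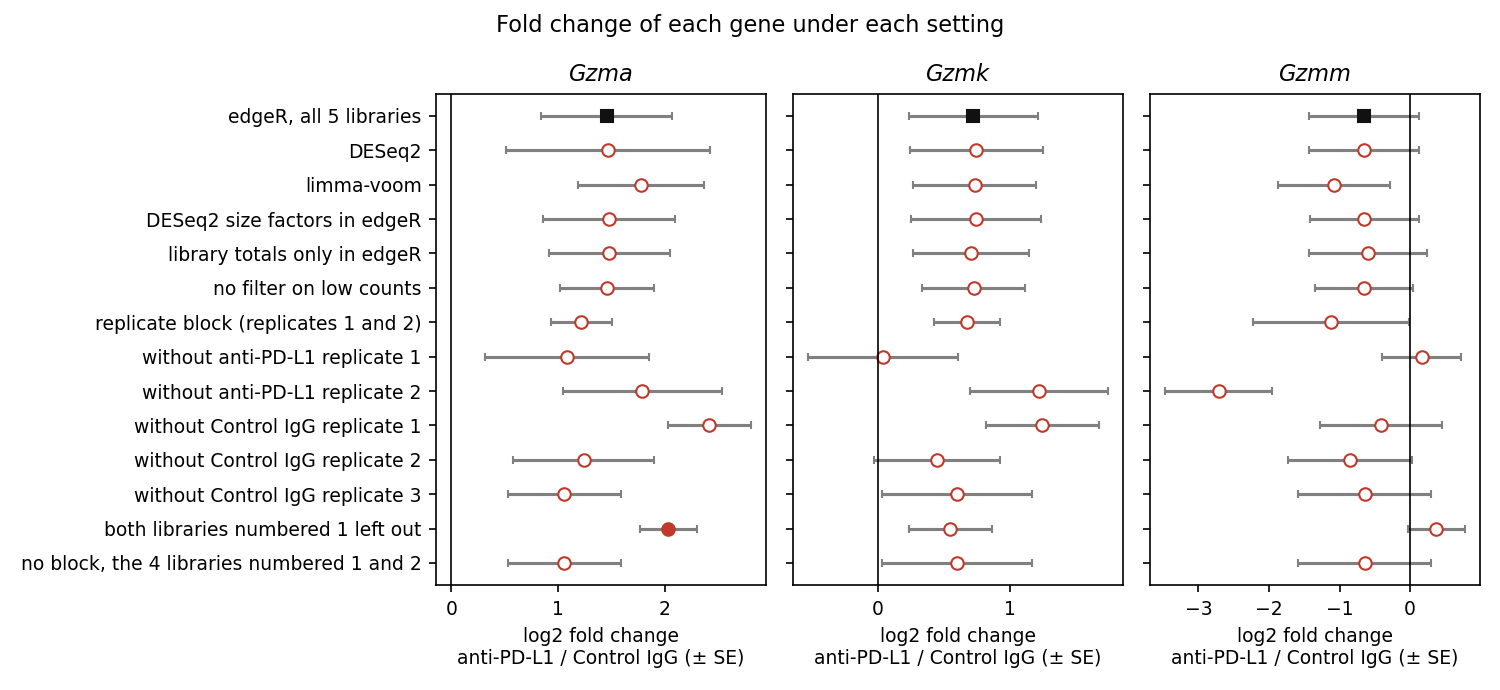
Log2 fold change of anti-PD-L1 over Control IgG for Gzma, Gzmk and Gzmm (bars, SE) with all 5 libraries (black square) and under each alternative (circles, filled where the adjusted p is under 0.05). Gzma stays above 0 in all 13 alternatives, between 1.06 and 2.42, a sign that leaving out libraries could not turn, since its groups do not overlap. Gzmm crosses 0 where anti-PD-L1 replicate 1 is left out. The fit without Control IgG replicate 3 appears again as the fit without a block on the libraries numbered 1 and 2.

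Between libraries with the same number, values lay higher after anti-PD-L1 for Gzma and Gzmk. In the libraries numbered 1, Gzma was 1.71 times as high after anti-PD-L1 as with Control IgG, and Gzmk 1.42 times. In those numbered 2 the ratios were 3.18 for Gzma and 1.81 for Gzmk. For Gzmm the same ratios were 0.114 and 1.62, on opposite sides of 1. Within each group, Gzma and Gzmk were highest in the library numbered 1, the one with fewer detected genes, and the part this plays in the differences was not tested. The labels do not say that a number marks a shared batch.

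Per kilobase of the principal transcript, the order Gzma, Gzmk, Gzmm held in all 5 libraries. The levels were 968 ± 314 CPM per kb for Gzma, 69.2 ± 37.0 for Gzmk and 4.33 ± 4.69 for Gzmm after anti-PD-L1 (SD, n = 2), and 352 ± 301 for Gzma, 41.8 ± 22.7 for Gzmk and 6.82 ± 2.06 CPM per kb for Gzmm with Control IgG (SD, n = 3). The balance between the 2 tryptases was read in each library. The ratio of Gzma to Gzmk, in counts per kb, was 12.5 and 17.4 in anti-PD-L1 replicates 1 and 2, against 10.3, 9.87 and 3.71 in Control IgG replicates 1, 2 and 3. Both anti-PD-L1 ratios lay above all controls, with an exact permutation p of 0.2, the smallest the design allows, in a family of 12 ratios and shares none of which can pass. Of the same family, the ratio of Gzma to Gzmm also lay above all controls, and the Gzmb share of granzyme counts lay below all controls. The ratio of Gzmk to Gzmm was 94.5 and 5.62 after anti-PD-L1, against 7.63, 5.05 and 4.96 with Control IgG, and overlapped.

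Gzmb, which encodes granzyme B, was the granzyme with the most counts in every library, at 6.47 and 3.36 times Gzma per kb after anti-PD-L1 and at 3.81, 9.34 and 15.9 times with Control IgG. Of the counts of all 10 granzyme genes listed, Gzma made up 7.48% and 13.9% in anti-PD-L1 replicates 1 and 2, against 13.4%, 5.74% and 3.42% in Control IgG replicates 1, 2 and 3. The Gzmk share was 0.702% and 0.940% after anti-PD-L1, against 1.52%, 0.681% and 1.08% with Control IgG. As a share of granzyme transcripts, neither gene separated the groups. The granzyme total was 1.30% and 0.492% of the library after anti-PD-L1, against 0.412%, 0.385% and 0.346% with Control IgG. In anti-PD-L1 replicate 1, where Gzma was highest in CPM, its share of granzyme counts was lower than in replicate 2. The 6 tested genes of the chromosome 14 cluster had a median log2 fold change of 2.93, against -0.02 over all tested genes. For 5 of them the anti-PD-L1 values lay above all control values, against 7.74% of all tested genes. Gzme had 3.19 ± 0.61 and Gzmc 2.62 ± 0.62 (SE). Among the 6 and the 5 was Gzmg, with 25 and 32 counts after anti-PD-L1 and 0 in every control. It passed the filter on low counts only through the anti-PD-L1 libraries, so its direction and non-overlap were fixed in advance.

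**Figure D3:**
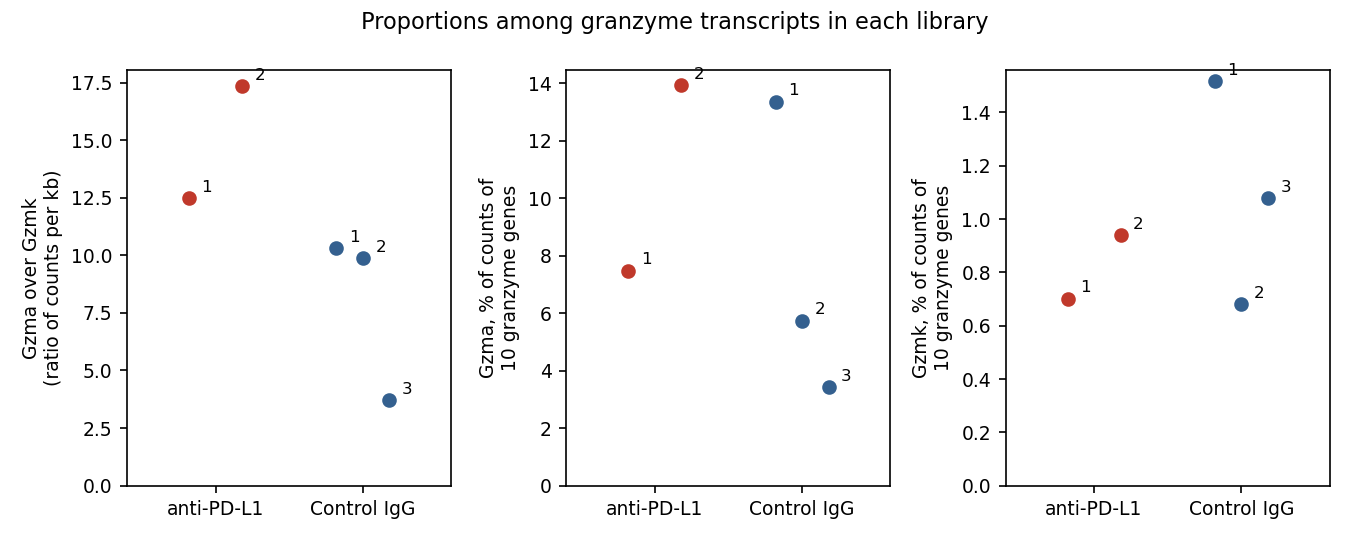
Ratio of Gzma to Gzmk in counts per kb, and the shares of Gzma and Gzmk among the counts of 10 granzyme genes, in each library of the anti-PD-L1 and Control IgG groups with replicate numbers beside the points. The ratio lies at 12.5 and 17.4 after anti-PD-L1, above the controls, while both shares overlap.

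Genes that process and sort granzymes showed little difference. Of 9 tested members, 7 had a log2 fold change above 0, as did 48.1% of all tested genes, the median was 0.17, and 0 passed in either direction. For 3 of the 9 the anti-PD-L1 values lay above all control values, against 7.74% of all tested genes. Igf2r, the mannose 6-phosphate receptor that carries granzymes to the granule, had 0.39 ± 0.28 (SE), at 74.9 and 74.5 CPM after anti-PD-L1 against 41.5, 69.0 and 60.3 CPM in Control IgG replicates 1, 2 and 3. Ctsl, which encodes the lysosomal protease cathepsin L, had -1.11 ± 0.74 (SE), with overlapping groups. Ctsc, whose product cathepsin C activates granzyme precursors by removing a dipeptide, had 0.17 ± 0.39 (SE), and its 268 and 125 CPM after anti-PD-L1 spanned the 244, 141 and 139 CPM of the controls. Like Gzma and Gzmk, Ctsc was in each group highest in the library numbered 1, an order whose share over all tested genes was not counted.

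Of 16 tested genes of granule delivery, 13 had a fold change above 0, against 48.1% of all tested genes, with a median of 0.18 and 0 passing. The groups did not overlap for 3, all of them above the controls, against 7.74% of all tested genes. Prf1, which encodes the pore-forming protein perforin, had 1.44 ± 0.48 (SE), at 2975 and 851 CPM after anti-PD-L1 against 813, 514 and 782 CPM with Control IgG. Like Gzma, it had the lower anti-PD-L1 library just above the highest control. Vamp8, a SNARE protein of granule release, had 0.62 ± 0.25 (SE), at 204 and 147 CPM after anti-PD-L1 against 126, 114 and 103 CPM with Control IgG.

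Serpins that can act on granzymes went both ways, with 5 of 8 tested members above 0, against 48.1% of all tested genes, a median of 0.21 and 0 passing. For 2 the anti-PD-L1 values lay above all control values, where 7.74% of all tested genes did. Serpinb9b, described in mice as an inhibitor of granzyme M, had 2.67 ± 0.60 (SE), at 480 and 183 CPM after anti-PD-L1 against 17.5, 68.1 and 70.6 CPM with Control IgG. Its highest level was in anti-PD-L1 replicate 1, the library with the lowest Gzmm. Serpinb6b, described in mice as an inhibitor of granzyme A, had 0.21 ± 0.26 (SE), at 372 and 484 CPM after anti-PD-L1 against 436, 361 and 312 CPM with Control IgG. The groups overlapped for Serpinb6b, while its relative Serpinb6a had 0.59 ± 0.26 (SE) and did not overlap.

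Granzyme A is known for cutting proteins of the SET complex and other nuclear proteins in the target cell. In the T cells themselves, 10 of 12 tested genes of this list had a fold change below 0, while 48.1% of all tested genes had one above 0. The median was -0.26, against -0.02 over all tested genes. For 5 the anti-PD-L1 values lay below all control values, against 9.58% of all tested genes, and 0 passed. Ncl, which encodes nucleolin, had -0.87 ± 0.28 (SE), at 607 and 943 CPM after anti-PD-L1 against 1573, 1387 and 1277 CPM with Control IgG. Apex1, a DNA repair endonuclease, had -0.75 ± 0.33 (SE), at 14.1 and 22.7 CPM after anti-PD-L1 against 34.1, 28.2 and 30.6 CPM with Control IgG. Set itself had -0.54 ± 0.31 (SE), at 504 and 544 CPM after anti-PD-L1 against 1040.1, 674.5 and 574 CPM with Control IgG, and its highest value was in Control IgG replicate 1. The other 2 of these 5 were Nme1 and Xrcc6, and none of the 5 passed the test.

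Of 16 tested transcription factors of effector and memory CD8+ T cells, 8 had a fold change above 0 and 8 below, against 48.1% above over all tested genes. The median was -0.003, and 0 passed. The groups did not overlap for 1 member above and 2 below the controls, against 7.74% above and 9.58% below over all tested genes. The 2 below were Id3, with -1.66 ± 0.79 (SE), and Tcf7, with -0.85 ± 0.58 (SE). Prdm1, which encodes the effector factor Blimp-1, had 0.89 ± 0.30 (SE), at 121 and 66.1 CPM after anti-PD-L1 against 48.0, 49.4 and 54.1 CPM with Control IgG. Id2, which supports effector differentiation, had 0.95 ± 0.36 (SE), at 1120.1 and 474 CPM after anti-PD-L1 against 486, 362 and 389 CPM with Control IgG, so that the groups overlapped. Tbx21, which encodes T-bet, had 0.01 ± 0.24 (SE). Eomes stood at 6.49 and 27.5 CPM after anti-PD-L1, against 31.7, 27.7 and 17.8 CPM in Control IgG replicates 1, 2 and 3. The library with the least Gzmm thus also had the least Eomes. Eomes was not alone in this, as several other genes of the list were also lowest in that library.

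**Figure D4:**
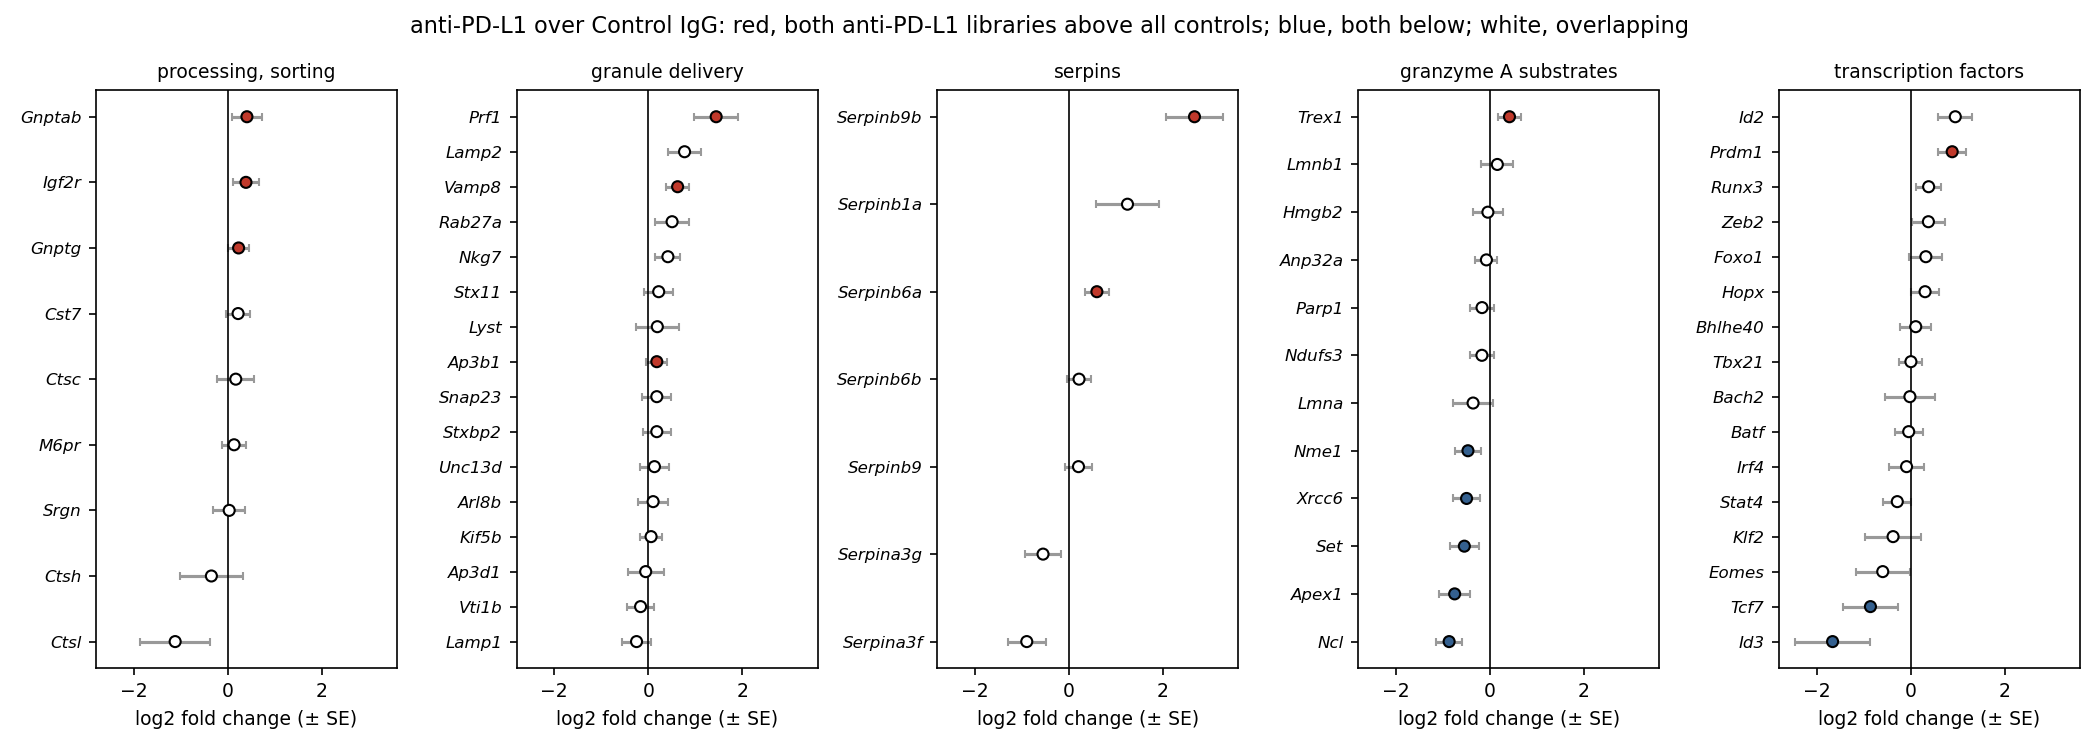
Log2 fold change of anti-PD-L1 over Control IgG (bars, SE) for tested genes of 5 lists around granzyme function, leaving out Serpinc1, which had under 100 counts over the 5 libraries. Red points had both anti-PD-L1 libraries above all controls, blue points both below, and white points overlapped. Among the red points Serpinb9b and Prf1 stand furthest to the right. Among the blue points Id3 stands furthest to the left, followed by Ncl, Tcf7 and Apex1.

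NK cells also express Gzma and Gzmm, and their markers were read beside these genes. The NK marker sum over 10 genes was 152 and 74.4 CPM in anti-PD-L1 replicates 1 and 2, against 80.7, 71.0 and 76.5 CPM in Control IgG replicates 1, 2 and 3. The excess in anti-PD-L1 replicate 1, where Gzma was highest and Gzmm lowest, lay in Klri2, at 70.1 CPM, and Fcer1g, at 63.5 CPM, which activated CD8+ T cells can also express. Of the defining markers, Ncr1 stood at 0 and 0.234 CPM after anti-PD-L1 and at 0.161, 0 and 0.0812 CPM with Control IgG, at or under the floor of 3 counts. Klrb1c stood at 2.94 and 2.26 CPM after anti-PD-L1 and at 3.87, 2.20 and 5.03 CPM with Control IgG, and Klra4 and Klra8 had 0 counts in every library. Klra7, of the same receptor family as these 2, was the NK gene whose groups did not overlap, at 1.81 and 0.935 CPM after anti-PD-L1 against 0.565, 0.401 and 0.487 CPM in Control IgG replicates 1, 2 and 3. The part of NK transcripts in the granzyme values was not tested.

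The genome neighbours of Gzma and Gzmk were mostly low or silent in these cells. Gpx8, 47414 bases from Gzma, had 22 and 7 counts after anti-PD-L1 against 12, 3 and 1 counts in Control IgG replicates 1, 2 and 3. Esm1 had 41 and 29 counts after anti-PD-L1, against 41, 5 and 13 counts with Control IgG. Ccno had at most 3 counts in any library and Hspb3 had 0. Both Gpx8 and Esm1 were in each group highest in the library numbered 1, as Gzma and Gzmk were, with Esm1 at equal counts in the 2 libraries numbered 1. Dhx29 was in each group lowest in that library, at 28.3 against 32.4 CPM after anti-PD-L1 and at 17.4 against 33.1 and 27.7 CPM with Control IgG. The counts of Gpx8 and Esm1 were low, and the share of all tested genes with either order was not counted. The expressed flanking genes had smaller log2 fold changes than Gzma, of 0.22 ± 0.35 (SE) for Dhx29 and 0.44 ± 0.30 (SE) for Snx18. Snx18 stood at 32.9 and 33.5 CPM after anti-PD-L1 against 27.9, 19.3 and 26.2 CPM with Control IgG. Like those of Gzma, its groups did not overlap, and 7.74% of all tested genes likewise lay above the controls. No difference between these genes and Gzma was tested. Around Gzmm, the ubiquitin-conjugating enzyme gene Cdc34, whose end lies 621 bases before Gzmm, stood at 59.5 and 61.3 CPM after anti-PD-L1 against 64.0, 62.1 and 66.3 CPM with Control IgG. Anti-PD-L1 replicate 1, with little Gzmm, thus had nearly the usual Cdc34 level. Bsg, on the other side of Gzmm, had 0.21 ± 0.24 (SE) and Polrmt -0.28 ± 0.39 (SE), while Odf3l2 had 0 counts in every library and Madcam1 and Hcn2 had at most 3.

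Over the 5 libraries, log2 CPM values of Gzma correlated with those of Gzmk at a Pearson r of 0.81, and those of Gzmm at -0.44 with Gzma and -0.52 with Gzmk, as a description of 5 points that share library depth and composition. Among 7698 genes whose mean log2 CPM was 3 or more, the profiles most like that of Gzma were those of Unc50, Gla, Slc17a6 and Stradb, with r of 0.994 to 0.998. Their range was narrower, as Slc17a6, which encodes a vesicular glutamate transporter, had 125 and 108 CPM after anti-PD-L1 against 106, 72.1 and 53.2 CPM with Control IgG. Pld3, Ppp2r5c, Tmem123 and Csnk1a1 were most like Gzmk, at 0.994 to 0.997. Fgd3, Tia1, Qtrtd1 and Maml2 were most like Gzmm, at 0.992 to 0.999, and Tia1, an RNA-binding protein known from cytotoxic granules, had 24.8 and 41.7 CPM after anti-PD-L1 against 42.6, 37.6 and 39.3 CPM with Control IgG. With so few libraries, 1.35%, 5.18% and 3.48% of the compared genes had r above 0.9 with Gzma, Gzmk and Gzmm.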

How the data were processed

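Reads of poly(A) RNA from 5000 to 30000 sorted cells per library, amplified by a modified Smart-seq2 protocol that marks neither strand nor molecule, had been counted per gene symbol. The values are whole-number counts as deposited by the authors, without normalization. The submitters' processing notes name TopHat, HTSeq and the build mm10. Their versions, the annotation and the rule for multi-mapping reads are not stated in any source used here. The 5 counter lines of each file were left out of library sizes (reads without a feature were 7.46% to 15.2% and ambiguous reads 1.38% to 1.51% of a file's counts).

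Groups and replicate numbers come from the labels. No 2 libraries were copies, since the chi-square per degree of freedom between pairs was 19.2 to 92.3. All genes were fitted with edgeR 4.0.16 (R 4.3.3) by the two-sided quasi-likelihood F-test with TMM scaling and filterByExpr (minimum count 10, minimum total 15), which kept 11299 genes including all 3 granzymes, and Benjamini-Hochberg adjustment at 0.05. Fold changes are anti-PD-L1 over Control IgG. The SE is the log2 fold change divided by the square root of F. CPM is TMM-scaled, except for marker genes (library totals). Alternatives used DESeq2 1.42.0, limma-voom (limma 3.58.1), other scalings, no filter, a replicate block and left-out libraries. The fits were tested on simulated data. Coordinates come from GENCODE vM21 (GRCm38, the assembly that mm10 denotes), which held 20953 of 23337 symbols. Promoters come from RefSeq, where 3 of 3 genes matched.

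The genes and lists were chosen with earlier results of these data known. Named were the 2 members of smallest p in each list, the 2 markers of highest mean CPM for other cell types, the 3 listed protein-coding genes on either side of each granzyme, and the 4 genes of highest correlation with each. Gzmb, Ctsc, Serpinb6b, Set, Tbx21, Eomes and the other single markers named were picked for their role after their values were seen. Gzmg was named for its lack of counts in the controls, and Id3, Tcf7, Nme1 and Xrcc6 for lying below all controls. Of 116 list symbols, 4 were not matched. The results of 2 marker lists are not reported here.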

Additional observations from a re-analysis of the deposited data

How the results depend on the processing

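Gzma kept a log2 fold change above 0 in all 13 alternatives. Its groups did not overlap, so leaving out libraries could not turn this sign. Gzma stayed short of the threshold in 12 of the 13. With both libraries numbered 1 left out it was 2.03 at an edgeR adjusted p of 0.004 (adjusted p over its alternatives, 0.004 to 1.000), a fit of a single anti-PD-L1 library whose spread comes from 2 controls. Gzmk stayed above 0 and short of the threshold in all 13. Gzmm turned to 0.16 without anti-PD-L1 replicate 1 and to 0.37 with both libraries numbered 1 left out. With 1 library left out at a time, the fold change ran from 1.06 to 2.42 for Gzma and from 0.04 to 1.25 for Gzmk. For Gzmm it ran from -2.71 to 0.16. With any Control IgG library left out, 0 genes were called. With an anti-PD-L1 library left out, the lone anti-PD-L1 library is assumed to vary like the controls. The number of genes called was 4 with DESeq2 (Gzmc, Gzme, Serpinb9b and Serpine2), 5 without a filter on low counts (the same 4 and Gzmf) and 1 with both libraries numbered 1 left out (Gzma), against 0 with all libraries. Replicate numbers 1 and 2 occur in both groups, but nothing in the labels ties them to a shared batch. Deviations from the group means correlated over genes at 0.33 for number 1 and 0.37 for number 2. The deviations of only 2 anti-PD-L1 libraries mirror each other. Anti-PD-L1 replicate 2 with Control IgG replicate 1 thus gave -0.33, and anti-PD-L1 replicate 1 with Control IgG replicate 2 gave -0.37. Anti-PD-L1 replicate 2 with Control IgG replicate 3, of unlike number, gave 0.16. A shared batch was not tested. With the replicate number as a block, on the 4 libraries numbered 1 and 2, the fold change was 1.22 for Gzma, 0.67 for Gzmk and -1.12 for Gzmm. In this fit 0 genes were called. The same 4 libraries without the block, an alternative chosen after seeing the data, gave 1.06, 0.60 and -0.64. That alternative is the same fit as the one without Control IgG replicate 3, which the 13 alternatives thus count again. At 14 counts in anti-PD-L1 replicate 1, depth limits Gzmm more than the other 2 genes.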
